A study of Mus musculus with 6 samples.

Results

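The active zone is the patch of presynaptic membrane at which synaptic vesicles are docked, primed and released. The 10 genes described here encode its scaffold and priming proteins: Bsn, Pclo, Erc1 and Erc2, the RIM genes Rims1, Rims2 and Rims3, and the Munc13 genes Unc13a, Unc13b and Unc13c. They were chosen by name, with earlier results of these data known. Shares of all genes that are set beside them are therefore descriptions. Where several probe sets measure a gene, the one with the highest mean stands for it, chosen among those that the platform annotation assigns to that gene only. All 10 of 10 had such a probe set, out of 18193 genes in the series, and 26 probe sets in all served as a check. RNA came from male C57BL/6J mice with no treatment or altered allele named in the labels. The tissues were 3 nuclei of the auditory brainstem. VCN is the ventral part of the cochlear nucleus, LSO the lateral superior olive, and MNTB the medial nucleus within the trapezoid body. Each was sampled at postnatal day 3 (P3), from a pool of 6 animals, and at postnatal day 14 (P14), from a pool of 3. Tissue was dissected from fresh brain slices of 200 µm, so a sample holds all cells of the region. There was 1 Affymetrix array for each combination, 6 arrays in total and no replicate of any. The comparison asks how the genes changed from P3, when mice do not yet hear, to P14, when hearing has begun, and whether they differed between nuclei.

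At an active zone, bassoon and piccolo, the products of Bsn and Pclo, are very large scaffold proteins. The ERC proteins bind them and the RIM proteins. RIM proteins hold calcium channels close to docked vesicles and recruit Munc13, which opens syntaxin so that a vesicle becomes ready to fuse. In this circuit bushy cells of the VCN send axons to the other nuclei, among them those that end on MNTB neurons as the calyx of Held, a giant terminal used to study release. MNTB neurons in turn inhibit the LSO. Since most messenger RNA lies in the cell body, RNA of a nucleus comes mainly from cells that reside there and not from terminals arriving from elsewhere.

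Array medians lay between 6.27 and 6.31 log2 units. Gapdh read at its 3' end exceeded Gapdh read at its 5' end, which tracks RNA quality, by 1.21 to 1.41 at P3 and by 1.06 to 1.11 at P14. It went with age, as did the number of animals in a pool, and neither can be told apart from age. The 12 probe sets for spiked bacterial RNA had age differences of -0.12 to 0.17. Markers of the neurons differed between nuclei. Slc32a1, the vesicular transporter of inhibitory neurons, was higher in MNTB than in VCN (limma adjusted p = 0.00657). Slc17a6, a vesicular glutamate transporter, was lower in MNTB than in VCN (adjusted p = 0.0277). The VCN array of P14 stood apart by Gabra6, a gene of cerebellar granule cells, at 7.97 against 3.26 to 4.37 on the other arrays. It also stood apart by Ttr, a gene of the choroid plexus, at 12.58 against 6.61 to 6.93. The VCN array of P3 had Otx2, another gene of that tissue, at 9.34, with 6.52 on the VCN array of P14 and 3.04 to 3.34 on the rest. Of the 7 choroid plexus genes, 6 were highest in VCN at P14 but 3 at P3, where Ttr was at 6.93 in VCN and at 6.61 to 6.71 in the other nuclei.

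Expression of the active zone genes was lower at P14 than at P3, with a single gene moving the opposite way. Bsn, Pclo, Erc1, Erc2, Rims3, Unc13a, Unc13b and Unc13c fell, Rims2 rose, and Rims1 had a difference of -0.29 that did not pass the test. The test was limma's moderated test on all 6 arrays, in a model that adds an age term to a nucleus term. It was two-sided and adjusted by Benjamini and Hochberg over 13022 genes, with a threshold of 0.05. Its spread is how far the age difference varied between the 3 nuclei, drawn toward that of other genes of like level. With 2 residual and 3.99 prior degrees of freedom, much of it comes from those other genes. No part of it measures repetition over animals. In this fit 8 of the 10 fell, where 17.7% of all genes tested were called lower, and 1 rose, where 23.4% were called higher; in either direction it was 9 of 10, where 41.1% were called. All 10 had an unadjusted p under 0.05, as had 50.2% of all genes. All 10 also had the same sign in the 3 nuclei, as had 67.9% of all genes. The median age difference of the 10 genes was -0.92 log2 units, and that of all genes tested was 0.03. In 9 of the 10 the P3 and P14 arrays did not overlap. Over all genes the P14 arrays lay wholly below those of P3 in 23.4% and wholly above in 30.3%. In bulk tissue, fewer cells of a type and less RNA per cell cannot be told apart.

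**Figure D1:**
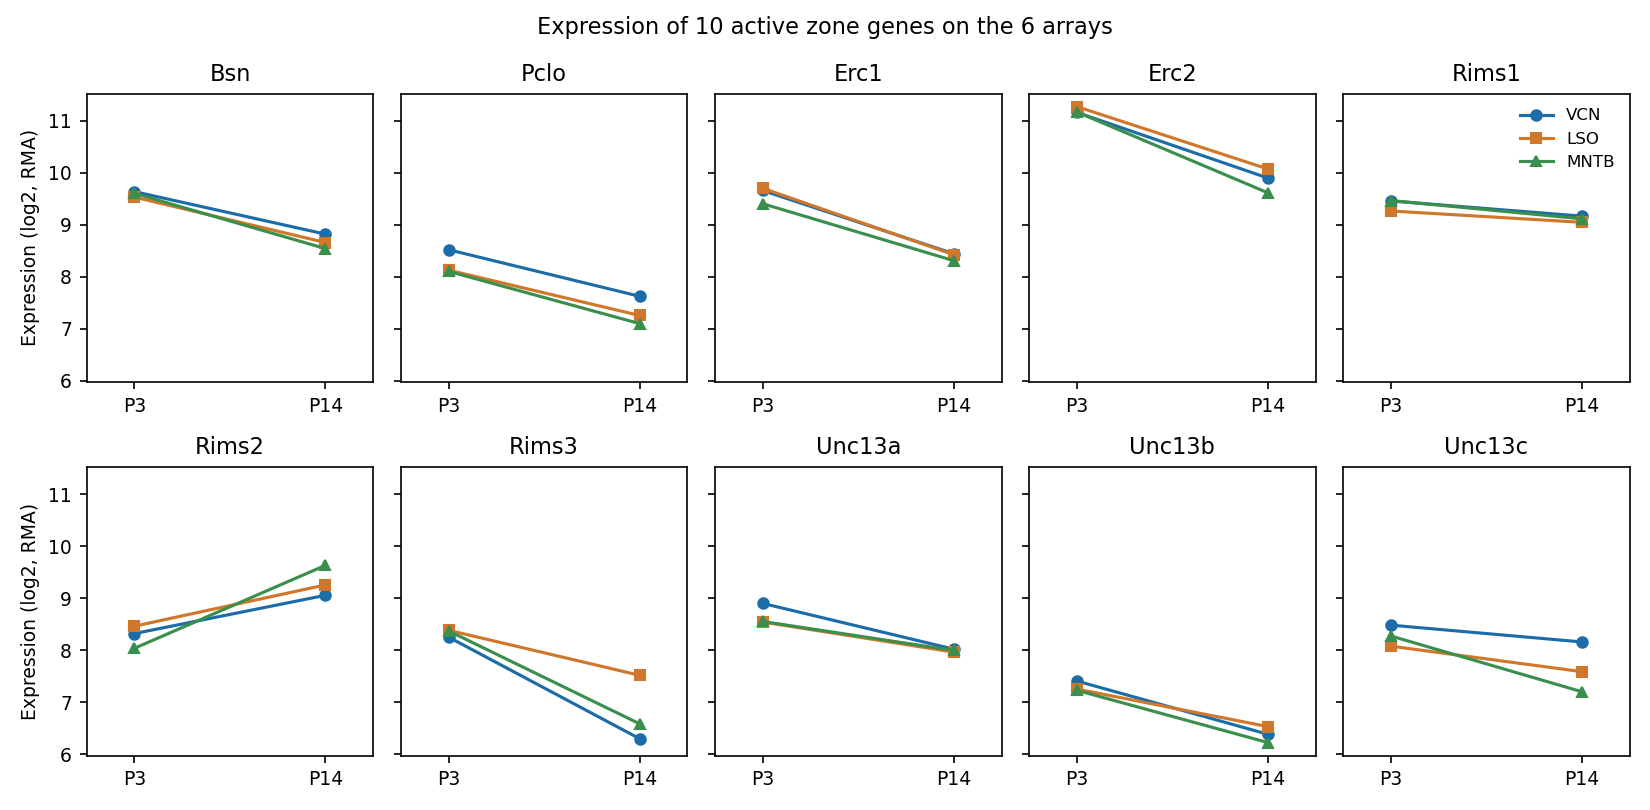
Expression of the 10 active zone genes (log2 RMA values, y axis) at P3 and P14 (x axis), with 1 array per point and a line for each nucleus. The lines of Rims2 go up, from 8.04 to 8.46 at P3 to 9.06 to 9.63 at P14, and those of the other 9 genes go down, with a wide spread of Rims3 at P14.

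The scaffold genes fell by similar amounts in all nuclei. Bsn (probe set 1450467_at) was at 9.64 (VCN), 9.53 (LSO) and 9.60 (MNTB) at P3, and at 8.82, 8.66 and 8.54 at P14. All P14 arrays lay below all P3 arrays, and the nuclei of an age stood close together. The fall was 0.92 ± 0.10 log2 units (limma's moderated standard error, 3 nuclei, limma adjusted p = 0.00153), which leaves 52.9% of the P3 level on a linear scale. Its weaker probe sets gave smaller differences, of -0.60 and -0.25, the last not past the test at the level of probe sets (adjusted p = 0.169), and the median of its probe sets was at -0.60.

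Pclo (1419392_at) stood at 8.52 (VCN), 8.13 (LSO) and 8.10 (MNTB) at P3. At P14 the values were 7.63, 7.26 and 7.10. Again the ages did not overlap, and VCN was the highest nucleus at each age. Pclo fell by 0.92 ± 0.11 (adjusted p = 0.00200), to 52.7% of its P3 level, and all 3 of its probe sets were called lower, from -0.92 to -0.49. The fall of Bsn and that of Pclo differed by 0.08 (VCN), -0.0019 (LSO) and -0.06 (MNTB). By their representative probe sets the paralogs thus changed by nearly the same factor in each nucleus. Sets of 1 gene differed by more than that. In VCN the other sets were at -0.47 and -0.29 for Bsn and at -0.70 and -0.24 for Pclo.

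Both ERC genes fell by more than 1 log2 unit. How their falls differ from those of the scaffold genes was not tested. Erc1 (1451279_at), known as ELKS, read 9.66 (VCN), 9.70 (LSO) and 9.41 (MNTB) at P3, and 8.44, 8.43 and 8.31 at P14. The gap between the lowest P3 and the highest P14 array was 0.96 log2 units. Erc1 fell by 1.20 ± 0.10 (adjusted p = 0.000699), and its 4 probe sets were all called lower, from -1.33 to -0.84. Erc2 (1434582_at), known as CAST, is the more brain-restricted of the pair. It was at 11.16 (VCN), 11.27 (LSO) and 11.17 (MNTB) at P3, and at 9.90, 10.07 and 9.62 at P14. Erc2 had the widest gap between ages among the 10 genes, 1.09 log2 units, and the smallest adjusted p. It fell by 1.34 ± 0.10 (adjusted p = 0.000502), to 39.6% of the P3 level. Erc2 had 1 probe set, so this value has no second reading. The fall of Erc1 was the smaller of the pair by 0.46 in MNTB, whereas in VCN and LSO the age differences of the paralogs were 0.05 and -0.08 apart.

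The RIM family split in direction. Rims1 (1438305_at) was at 9.46 (VCN), 9.27 (LSO) and 9.47 (MNTB) at P3 and at 9.17, 9.05 and 9.12 at P14. The ages did not overlap, by a margin of 0.10, but the difference of -0.29 ± 0.09 did not pass (adjusted p = 0.0533). It passed with quantile normalization repeated (-0.36, adjusted p = 0.0253) and without nucleus in the model (adjusted p = 0.0447), and it was at 0.03 relative to pan-neuronal genes (adjusted p = 0.835). The other probe set of Rims1 was at -0.25 (adjusted p = 0.196). Both probe sets thus gave a small difference that missed the threshold.

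Rims2 (1422809_at) was the gene that rose. It was at 8.32 (VCN), 8.46 (LSO) and 8.04 (MNTB) at P3, and at 9.06, 9.26 and 9.63 at P14. Every P14 array lay above every P3 array, and MNTB passed from the lowest of the nuclei to the highest. The rise was 1.04 ± 0.19 log2 units (adjusted p = 0.00752), 2.06-fold on a linear scale. It was 0.74 (VCN), 0.79 (LSO) and 1.60 (MNTB), and whether nuclei differ in it could not be tested with 1 array for each combination. The rise passed in each of the 6 fits that left out 1 array, with 0.76 as the lowest value, without either MNTB array.

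Probe sets of Rims2 disagreed. The probe set 1450761_s_at rose by 0.93 ± 0.18 (adjusted p = 0.00916) and 1436470_at by 1.37 ± 0.18 (adjusted p = 0.00221, limma over 27022 probe sets). In each of these and in the representative one the rise was smallest in VCN and largest in MNTB. The dimmer sets pointed the other way. The probe set 1443215_at, with a mean of 5.84, had differences of -0.71, -0.44 and -0.17 in VCN, LSO and MNTB, and did not pass (adjusted p = 0.0603). The faintest, 1432102_at, with a mean of 4.92, lay below the level at which genes were tested and had differences of -0.78, -0.99 and -1.43. Its P14 values, 4.47, 4.19 and 4.49, lay at or near the level of unspiked controls (up to 4.42), with LSO within it, so the size of these differences is not measured. The 3 brighter sets thus went up in every nucleus, and neither of the dimmer ones rose. Which transcripts each set detects is not given in the files.

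Rims3 (1435971_at) had the largest fall. It encodes a short RIM protein that keeps the C-terminal C2B domain and lacks the parts that bind vesicles and Munc13. At P3 it was at 8.25 (VCN), 8.39 (LSO) and 8.37 (MNTB), a range of 0.13. At P14 it was at 6.30, 7.52 and 6.59, a range of 1.22 with LSO the highest. The ages did not overlap. Rims3 fell by 1.53 ± 0.22 (adjusted p = 0.00366), by 1.95 (VCN), 0.87 (LSO) and 1.79 (MNTB). The second probe set, 1459042_at, fell by 1.64 ± 0.20 (adjusted p = 0.00167). In it, too, LSO had the smallest difference, at -1.15 against -1.62 in VCN and -2.15 in MNTB. The difference between nuclei was not testable. Set against each other within a nucleus, the changes of Rims2 and Rims3 lay 2.69 log2 units apart in VCN, 1.66 in LSO and 3.38 in MNTB. Those of Rims1 and Rims2 differed by -1.03, -1.01 and -1.95. With 3 nuclei a sign-flip test of such a pair cannot go below 0.25, so none was run.

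**Figure D2:**
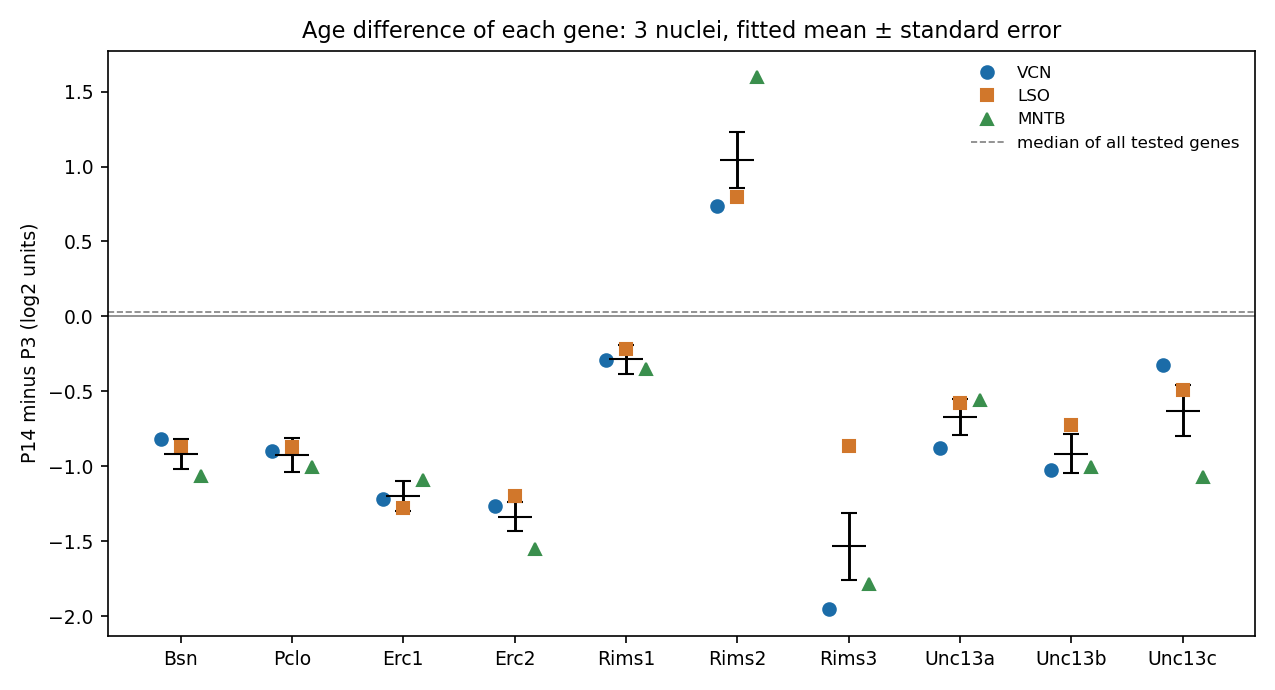
Age difference (P14 minus P3, log2 units, y axis) of each of the 10 genes (x axis) in the 3 nuclei, with the fitted mean and its standard error as black bars. Rims2 is the gene above 0, at 1.04, and Rims3 has the lowest mean, at -1.53, with LSO at -0.87 above the other nuclei.

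The Munc13 genes, whose products prime vesicles, all fell. Unc13a (1437472_at), which encodes the main isoform of most forebrain synapses, was at 8.90 (VCN), 8.54 (LSO) and 8.56 (MNTB) at P3. At P14 the nuclei had drawn together at 8.02, 7.97 and 7.998, a range of 0.06. Unc13a fell by 0.67 ± 0.12 (adjusted p = 0.00723), by 0.88 (VCN), 0.58 (LSO) and 0.56 (MNTB). It had 1 probe set. Unc13b (1417757_at) was at 7.41, 7.26 and 7.23 in VCN, LSO and MNTB at P3 and at 6.39, 6.53 and 6.23 at P14, with no overlap of the ages. It fell by 0.92 ± 0.13 (adjusted p = 0.00323), and its second probe set by 0.89 ± 0.14 (adjusted p = 0.00426). The fall of Unc13a was smaller than that of Unc13b in all nuclei, by 0.14 (VCN), 0.14 (LSO) and 0.45 (MNTB).

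Unc13c (1455304_at) was the gene in which the ages overlapped. It is known for strong expression in cerebellar granule cells. Values at P3 were 8.48 (VCN), 8.08 (LSO) and 8.28 (MNTB), and at P14 8.16, 7.59 and 7.20. By this probe set VCN at P14 thus lay above LSO at P3, and VCN was the highest nucleus at each age. Unc13c fell by 0.63 ± 0.17 (adjusted p = 0.0292). The fall was 0.32 (VCN), 0.49 (LSO) and 1.07 (MNTB). Without either LSO array the difference was -0.70 (adjusted p = 0.0762 and 0.0735), and without either MNTB array it was -0.41 (adjusted p = 0.135 and 0.128). None of these 4 fits passed, nor did the fit without nucleus in the model (adjusted p = 0.0830). Of its other probe sets, 1430511_at fell by 0.77 (adjusted p = 0.0254) and 1437319_at was at -0.38 (adjusted p = 0.123), with LSO at 0.04. The order of nuclei differed in them. In 1430511_at MNTB was highest at P3 (7.97, VCN 7.93) and LSO at P14 (7.33, VCN 7.21), and the ages did not overlap. In 1437319_at VCN was highest at P3 (6.78) and LSO at P14 (6.14, VCN 6.12). Of the 12 cerebellar granule and Purkinje cell genes, 9 were highest in VCN at both ages, and the Purkinje cell genes Pcp2, Calb1 and Car8 were not. Car8 was lowest in VCN at both ages (8.07 and 6.79), and Calb1 was at 8.71 in VCN and 11.03 in MNTB at P14. The mean level of the list was 8.74 and 9.34 on the VCN arrays, at P3 and P14, and 6.98 to 7.77 on the others. Gabra6 was at 3.61 on the VCN array of P3, in the range of control sets for RNA that was not spiked (2.84 to 4.42). Without the VCN array of P14 the age difference of Unc13c was -0.78 (adjusted p = 0.0170). Whether these transcripts came from cerebellar cells or from cells of the VCN itself was not tested, nor was their part in the level of Unc13c.

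Among all 26 probe sets of the 10 genes, 25 were bright enough to test. Of these 17 were called lower, against 19.6% of all probe sets tested, and 3 were called higher, against 21.7%. The 3 called higher all belong to Rims2. A mean difference below 0 was found in 23 of the 26, and in 21 of them it was below 0 in each nucleus. The exceptions among those 23 were the dimmer set of Rims1, at the same value at both ages in MNTB, and the dimmest of Unc13c, higher in LSO. For Bsn, Pclo, Rims3, Unc13b and Erc1 every probe set read lower at P14 in every nucleus.

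**Figure D3:**
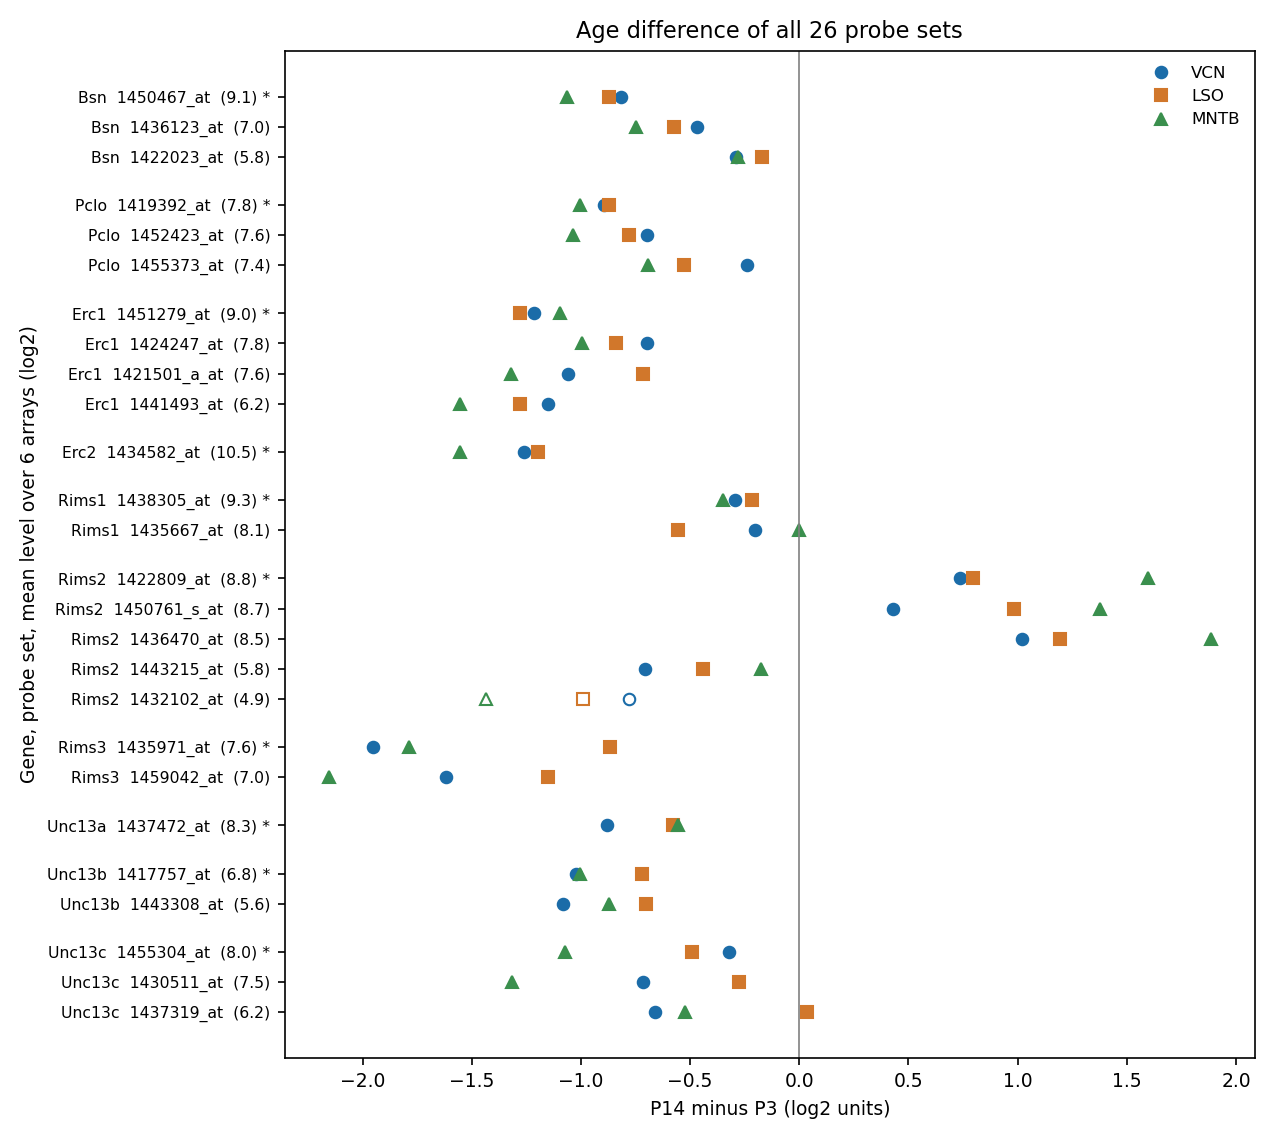
Age difference (P14 minus P3, log2 units, x axis) in the 3 nuclei for each of the 26 probe sets (y axis), with the mean level over the 6 arrays in brackets and a star at the set that represents its gene. Open symbols mark the set of Rims2 that was too dim to test, at a mean of 4.92. The 3 brighter sets of Rims2 lie to the right of 0, and nearly all others lie to the left.

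Erc1, Erc2 and Rims3 were the genes that fell by at least 1 log2 unit, 3 of the 10, where 3.95% of all genes did so. Rims2 was the 1 gene that rose by that much, where 6.5% of all genes did. Among nuclei, LSO had the smallest difference of Rims3 (-0.87) and of Erc2 (-1.20) but the largest of Erc1 (-1.28). The promoter windows of the 3 genes that fell by this much are shown because these genes passed the same cut on size. Each window holds the 250 bases before the RefSeq start site on build GRCm38.p6, 5′ to 3′ on the strand of the gene. Capitals mark GC boxes, GGGCGG on either strand, a motif bound by SP1-type factors. The windows are chr6:119848151-119848400 (minus strand) for Erc1, chr14:27622157-27622406 (plus strand) for Erc2 and chr4:120854549-120854798 (plus strand) for Rims3.
Erc1: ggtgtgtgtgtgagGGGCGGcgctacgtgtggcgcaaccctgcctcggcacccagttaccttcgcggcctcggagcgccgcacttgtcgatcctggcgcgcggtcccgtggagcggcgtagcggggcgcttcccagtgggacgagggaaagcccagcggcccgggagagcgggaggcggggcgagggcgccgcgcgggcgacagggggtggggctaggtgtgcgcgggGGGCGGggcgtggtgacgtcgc
Erc2: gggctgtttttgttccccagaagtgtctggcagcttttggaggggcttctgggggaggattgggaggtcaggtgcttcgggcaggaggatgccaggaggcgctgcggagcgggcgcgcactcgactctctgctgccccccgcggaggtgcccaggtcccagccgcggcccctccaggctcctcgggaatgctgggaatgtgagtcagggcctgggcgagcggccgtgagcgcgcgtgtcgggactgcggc
Rims3: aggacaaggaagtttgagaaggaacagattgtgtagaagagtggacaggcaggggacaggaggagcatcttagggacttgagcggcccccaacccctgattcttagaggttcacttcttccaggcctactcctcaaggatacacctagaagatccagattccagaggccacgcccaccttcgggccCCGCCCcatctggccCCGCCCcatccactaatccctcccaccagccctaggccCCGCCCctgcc
Erc1 has 2 GC boxes, Erc2 none and Rims3 3, so its letters are not in every one of these windows. Of the 9 genes with a window in the table, 7 held at least 1 GC box, as did 32.7% of the 32851 promoter windows of this length. None of the 9 held a TATA box (TATAAA on either strand), which 12.4% of all windows held, or a full cyclic AMP response element (TGACGTCA), which 1.5% held. Their GC content was 58.0% to 76.0%, with a median of 61.2%, and that of all windows had a median of 52.4%. Rims3 and Unc13c had 6 CpG dinucleotides each and the other 7 genes 16 to 36, beside a median of 6 over all windows. Rims2 has no entry. A match is a description of letters, not of a binding site.

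No difference between nuclei passed for any of the 10 genes. In limma none was called for MNTB minus LSO, where 0.161% of genes were called, for MNTB minus VCN (0.637%) or for VCN minus LSO (0.369%). Unadjusted p-values under 0.05 numbered 0, 2 and 2 in these contrasts, and 6.9%, 9.45% and 9.02% of all genes had one. Each contrast rests on 2 ages and draws on the spread of all 6 arrays. Pclo was 0.47 ± 0.14 lower in MNTB than in VCN on the log2 scale (adjusted p = 0.335) and 0.38 ± 0.14 higher in VCN than in LSO (adjusted p = 0.481). Unc13c had a difference of -0.58 ± 0.21 for MNTB minus VCN (adjusted p = 0.438), and Rims3 one of -0.68 ± 0.28 for VCN minus LSO (adjusted p = 0.551). Without the VCN array of P14, which stood apart by Gabra6 and Ttr, these differences were -0.45, 0.36, -0.35 and -0.36 in the same order. Other arrays moved those of Rims3 and Unc13c by more. Rims3 went to -0.17 without the LSO array of P14 and to -1.18 without that of P3. Unc13c went to -0.25 without the MNTB array of P14 and to -0.92 without that of P3. Over the 6 fits that left out 1 array, Pclo stayed between -0.53 and -0.41 for MNTB minus VCN. For VCN minus LSO it stayed between 0.34 and 0.42. The other probe sets of Pclo gave smaller differences, of -0.25 and -0.27 for MNTB minus VCN and of 0.21 and 0.30 for VCN minus LSO. For Unc13c the other sets gave -0.26 and -0.47 for MNTB minus VCN. For Rims3 the second set gave -0.56 for VCN minus LSO. The part of those markers in the nucleus differences was not tested.

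At P3 the median range between the nuclei was 0.25 log2 units over the 10 genes and 0.27 over all genes tested. At P14 it was 0.38 over the 10 and 0.24 over all. These ranges are those of the representative probe sets. The gene with the widest range at P14 was Rims3 (1.22), followed by Unc13c (0.96), Rims2 (0.58) and Pclo (0.52), and the narrowest was Unc13a (0.06). MNTB was the lowest nucleus at P14 for Bsn, Pclo, Unc13b, Unc13c, Erc1 and Erc2, 6 of the 10, where it was lowest for 34.4% of all genes. It was the highest at P14 for Rims2 only among the 10, where it was highest for 31% of all genes. The median age difference of the 10 was -0.89 (VCN), -0.79 (LSO) and -1.03 (MNTB), with 9 of 10 lower in each. Over all genes tested the medians were 0.05, 0.005 and 0.02, and 44.4%, 48.1% and 47.1% were lower.

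Other genes of the active zone and of priming gave 16 falls and 2 rises among 31 tested, with 13 not past the test and a median of -0.55. Of all genes tested, 17.7% fell and 23.4% rose. The list held binding partners of the 10 genes and was drawn up with earlier results of these data known. Without the MNTB array of P3 the falls numbered 10 and without that of P14 they numbered 11. RIM-binding protein genes fell with the scaffold: Tspoap1 by 1.24 ± 0.14 (adjusted p = 0.00170) and Rimbp2 by 0.94 ± 0.17 (adjusted p = 0.00699). The liprin gene Ppfia3, which links ERC and RIM proteins to receptors at the membrane, fell by 0.66 ± 0.11 (adjusted p = 0.00577). Of the other liprin genes, Ppfia4 fell by 0.84 (adjusted p = 0.0175) and Ppfia1 was at -0.04 (adjusted p = 0.816). Ppfia2, at -1.21, lay below the level at which genes were tested. The vesicle GTPase genes Rab3d and Rab3b, whose products bind RIM, fell by 1.30 and 1.27, and Rab3b did not pass without nucleus in the model (adjusted p = 0.0620). Of the other Rab3 genes, Rab3c fell by 0.61 (adjusted p = 0.0367) and Rab3a was at 0.004 (adjusted p = 0.982).

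The largest fall of the partners was that of Doc2b, a calcium sensor that binds Munc13, at -2.16 ± 0.42 (adjusted p = 0.0102). On the VCN array of P14 it was at 3.58, within the range of unspiked control sets, so its fall there is a lower bound. With values floored at 4.47 the difference of Doc2b was -1.86 (adjusted p = 0.00349). The 2 that rose were Ptprd, a receptor phosphatase that binds liprins, by 0.51 ± 0.13, and Git2, an adaptor that binds piccolo, by 0.48 ± 0.11. Neither passed without an LSO or MNTB array of either age. Their probe sets ranged from -1.54 to 0.84 for Ptprd and from -0.64 to 0.48 for Git2. Cadps, a priming protein gene of dense-core vesicles, was at 0.15 ± 0.18 (adjusted p = 0.551).

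**Figure D4:**
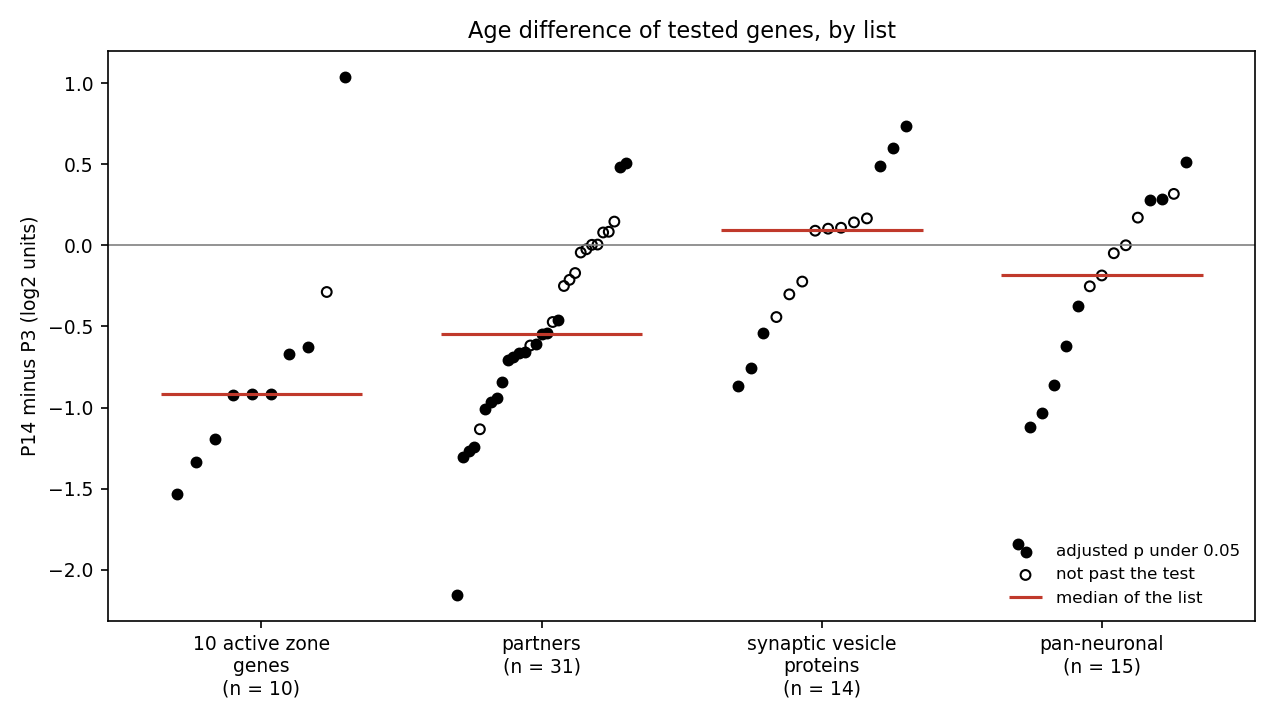
Age difference (P14 minus P3, log2 units, y axis) of the tested genes of 4 lists (x axis), each gene a point ordered within its list by size, filled where limma's adjusted p was under 0.05, with the list's median as a red line. The 10 active zone genes have a median of -0.92 and their partners one of -0.55, while the list of synaptic vesicle proteins has one of 0.10.

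Of 14 tested genes listed as synaptic vesicle proteins, 3 rose and 3 fell, and the median was 0.10. These shares are near those of all genes (23.4% and 17.7%). Some vesicle genes stood in other lists. Syt1 (-1.03) was counted as pan-neuronal, and Rab3a (0.004), Rab3b (-1.27), Rab3c (-0.61) and Rab3d (-1.30) as partners. The counts and the median of the vesicle list depend on that placing. Sv2a, a vesicle glycoprotein, rose by 0.74 ± 0.09 (adjusted p = 0.00207) and Syngr1, a synaptogyrin, by 0.60 ± 0.11 (adjusted p = 0.00780). Syn3, a synapsin of young neurons, fell by 0.87 ± 0.13 (adjusted p = 0.00418). Synpr fell by 0.75 ± 0.19 (adjusted p = 0.0250), though not without an LSO or MNTB array of either age (highest adjusted p = 0.122), nor without nucleus in the model (adjusted p = 0.383).

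Markers of other cell types changed between the ages as well. All 9 tested oligodendrocyte genes rose, with a median of 3.11. Of 9 astrocyte genes 5 rose and 2 fell (median 0.32). Microglial genes rose in 5 of 8 (median 0.62) and endothelial genes in 5 of 6 (median 0.84), and no gene of either list fell. Of 15 pan-neuronal genes 3 rose and 6 fell, with a median of -0.19. The lowest differences were those of Gap43 (-1.84), Rbfox3 (-1.12), Syt1 (-1.03) and Stmn2 (-0.86), and the highest was that of Eno2 (0.51). The mean of the list thus leans on a few large falls. The mean level of the 15 genes was 11.83 to 11.97 at P3 and 11.40 to 11.69 at P14, so it dropped by 0.24 (VCN), 0.29 (LSO) and 0.43 (MNTB). The part of these shifts in the falls of the active zone genes was not tested.

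With each array centred on the mean of the pan-neuronal genes, 6 of the 10 genes were still called lower, where 8.18% of all genes were, and Rims2 was called higher, where 48.6% of all genes were. The median of all genes then moved from 0.03 to 0.35, and 85.6% of the called genes were higher at P14, against 57.0% before. Values on this scale are thus relative to the mean of that list. How far this mean follows the neuron content of a sample was not tested. Erc2 was at -1.02, Rims3 at -1.22 and Erc1 at -0.88. Pclo, Bsn and Unc13b lay between -0.61 and -0.60. Unc13a (-0.35, adjusted p = 0.0610) and Unc13c (-0.31, adjusted p = 0.105) did not pass, Rims1 was at 0.03 and Rims2 at 1.36. The direction of the 9 called genes was the same on this scale, and that of Rims1 was not.

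The genes whose pattern over the 6 arrays was most like that of Rims3, out of all genes tested, were Pak6, a kinase gene (Pearson r = 0.996), Usp29 (0.996) and Lta4h (0.996). The 6 arrays share ages and nuclei, and 61 genes had r above 0.98. Pak6 was at 4.89 (VCN), 6.94 (LSO) and 5.58 (MNTB) at P14, with LSO the highest as for Rims3. This is a description and carries no test.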

How the data were processed

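Affymetrix mouse arrays were read as log2 values for each probe set, made by the authors with RMA, per the submitters' processing notes (version not given in the sources used here). RNA was extracted with an RNeasy kit, DNase-treated, amplified from 20 ng with a Nugen kit, and came from pools of 6 mice (P3) or 3 (P14), per the labels' protocols. Batch was not analysed here. Of 45101 probe sets, 64 were controls, 34945 named 1 gene, 932 several and 9160 none here. RefSeq matched 34741.

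Genes with a mean at or above the 40th percentile (5.56 log2 units) were tested, in all 13022. Fits used limma 3.58.1 in R 4.3.3 (eBayes with an intensity trend, 2 residual and 3.99 prior degrees of freedom). Names ending in _x_at were kept. The steps were tested on simulated data. The number of arrays limits the precision. Members and lists were chosen with earlier results of these data known. The alternatives concerned the filter, probe set, scaling, variance trend, model, a floor (4.47) and each array left out. Those for the partners were added after the data were seen. Named partners are the up to 4 largest called rises and falls, with Cadps, Rimbp2 and Ppfia3 whatever their values (1 further gene of this rule is not analysed here), and up to 2 each way for vesicle genes. Other liprin and Rab3 genes are given beside the named ones. Pak6, Usp29 and Lta4h were named as the 3 highest correlations. For the marker lists, genes that stand apart on 1 array or mark a nucleus were named.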

Additional observations from a re-analysis of the deposited data

Results flagged for a closer look

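The age difference of Cadps was 0.66 log2 units in VCN, -0.33 in LSO and 0.12 in MNTB. It stands here because the nuclei went opposite ways. With 1 array for each combination the difference between nuclei was not tested.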

How the results depend on the processing

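Under the 15 alternatives, 1 of the 10 genes was called higher each time, and the number called lower was 6 to 9. It was 6 with the pan-neuronal centring, 9 with quantile normalization repeated, 7 to 8 with 1 array left out and 8 otherwise. Bsn, Pclo, Rims2, Rims3, Unc13b, Erc1 and Erc2 passed in 15 of 15. Unc13a passed in 14 and Unc13c in 9. Rims1 reversed to 0.030 with the pan-neuronal centring, and the probe set 1443215_at of Rims2 reads -0.44. No nucleus contrast called any of the 10 under any alternative (lowest adjusted p = 0.227). Of 450 nucleus values 33 changed sign, none past the threshold. Partners called higher numbered 1 with the median of probe sets, 6 with the pan-neuronal centring and 0 to 2 with 1 array left out. Partners called lower numbered 10 to 16 with 1 array left out. Git2 reversed to -0.21 when its probe sets were summarised by their median. Cadps ran from -0.11 to 0.39 with 1 array left out, below 0 without either VCN array. Why these values moved was not tested. The age test compares the ages within each nucleus. The labels carry no replicate numbers, so no block by animal or replicate could be fitted. The number of arrays limits what small differences between nuclei could be seen.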
